A study of Rattus norvegicus with 179 samples.

Results

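The prefrontal cortex of aged male rats given an unmodified probiotic was compared with that of control rats. The comparison held 24 of the 179 libraries in the series: 12 from rats given Lactobacillus paracasei without an added gene (LP) and 12 from rats given buffer (CON). These libraries were taken by tissue and treatment label and not by a measured value, but the comparison itself was chosen with earlier results of these data known. The 4 groups were LPSed (no exercise, n = 6), LPEx (treadmill training, n = 6), CONSed (no exercise, n = 6), and CONEx (treadmill training, n = 6). All rats were F344BN males of 24 mo when obtained and were gavaged 3 times per week in a trial of 12 wk. The exercising rats ran 5 days per week for 12 wk, and the sedentary rats were placed on the same treadmill while it was off. The tissue was whole prefrontal cortex, read as poly(A) RNA, so a library averages neurons, glia, and vessel cells, and fewer cells of a type cannot be told apart from less RNA per cell. Each library came from a different rat of its group, so the p values below rest on the spread between rats.

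The prefrontal cortex serves working memory, planning, and the control of behavior, and it is often studied in cognitive aging. Lactobacillus species live in the gut and ferment sugars to lactic acid. Signals from gut bacteria are known to reach the brain through the vagus nerve, through immune mediators, and through metabolites of the blood, tryptophan derivatives among them. The comparison asked whether the carrier bacterium, without the angiotensin (1-7) transgene that another arm of the trial received, was accompanied by a change of transcript levels in this region. Genes are named by their Ensembl IDs, since 0 of the 32545 IDs could be paired with a symbol, and no role is given for an ID.

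Total counts per library were between 13211009 and 17944320, and averaged 15151836 in LP and 14400589 in CON (permutation test within activity, adjusted p = 0.289 over 6 library measures). Genes enriched in brain over liver, colon, and muscle, defined in the angiotensin (1-7) arm alone, took between 17.8 and 22.0% of the counts of all 24 libraries. One control library stood apart in its regional profile. On an index of 99 genes that are higher in hippocampus, where 0 is the prefrontal level and 1 the hippocampal level, CONSed rat 7 was at 0.514 and CONEx rat 9 at 0.216. The 12 LP libraries lay between -0.109 and 0.0274, and the other 10 CON libraries between -0.155 and 0.0269. Some results are given with and without these 2 libraries. The others, such as the correlations across genes, include them. The 24 hippocampal libraries of the same rats, used for comparison, were not uniform either. On this index that of LPSed rat 7 was at 0, the prefrontal level, LPSed rat 13 at 0.613, LPEx rat 10 at 0.6495, and CONSed rat 3 at 0.481, and the other 20 lay between 0.752 and 1.11. Whether tissue or labels were exchanged was not tested. Hippocampal fold changes of single genes are given with and without LPSed rat 7, LPEx rat 10, and CONSed rat 3, called doubtful below. These 3 were picked as holding least of 1 gene, ENSRNOG00000046863, and not by the index. LPSed rat 13 was kept, though it was lower than LPEx rat 10 on the index. None of the 6 measures passed the test between LP and CON. The lowest adjusted p in these permutation tests was 0.208, for the number of genes detected, which averaged 16774 in LP and 16366 in CON, and for the distance of a library from the median profile, a root mean square of 0.589 log2 units in LP and 0.696 in CON.

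No gene passed the test between LP and CON in the prefrontal cortex. With activity as a covariate, 0 of 15228 genes tested passed an FDR of 0.10 in edgeR (0% called, lowest FDR 0.9997), and DESeq2 and limma voom also called 0. At an unadjusted p under 0.05 there were 380 genes, 2.5% of those tested, of which 156 were higher and 224 lower in LP. DESeq2 put 441 genes under that p and limma voom 646. The median log2 fold change over all genes was -0.00, with quartiles of -0.11 and 0.10. Treadmill exercise, tested in the same fit, gave 5 calls (0.0328% called), 2 higher and 3 lower in exercised rats, and 1811 genes (11.9%) under an unadjusted p of 0.05. Library measures were not tested between activities. Genes detected averaged 16152 in LPSed and 15982 in CONSed, against 17396.5 in LPEx and 16750 in CONEx. The 10 most abundant genes took 16.6, 16.1, 12.5, and 14.0% of counts in these groups. The distance from the median profile averaged 0.499 in LPEx and 0.672 in CONEx.

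The fits were precise enough to bound most differences. A 95% confidence interval for LP versus CON lay wholly inside a 2-fold change in either direction for 12403 of 15228 genes (81.4%), and inside a 1.5-fold change for 9964 (65.4%). The bound depended on the level of the gene. Among the 7415 genes with a mean of 10 to 100 CPM (counts scaled to library size), 99.0% had an interval inside 2-fold, and among the 1865 genes over 100 CPM 99.9% did. For 4665 genes of 1 to 10 CPM the share was 68.3%, and for 1283 genes under 1 CPM it was 1.01%, so for nearly all of the rarest transcripts the interval reached past 2-fold. With 6 rats per group the share over all genes was 72.1% in LPSed versus CONSed and 71.3% in LPEx versus CONEx.

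**Figure D1:**
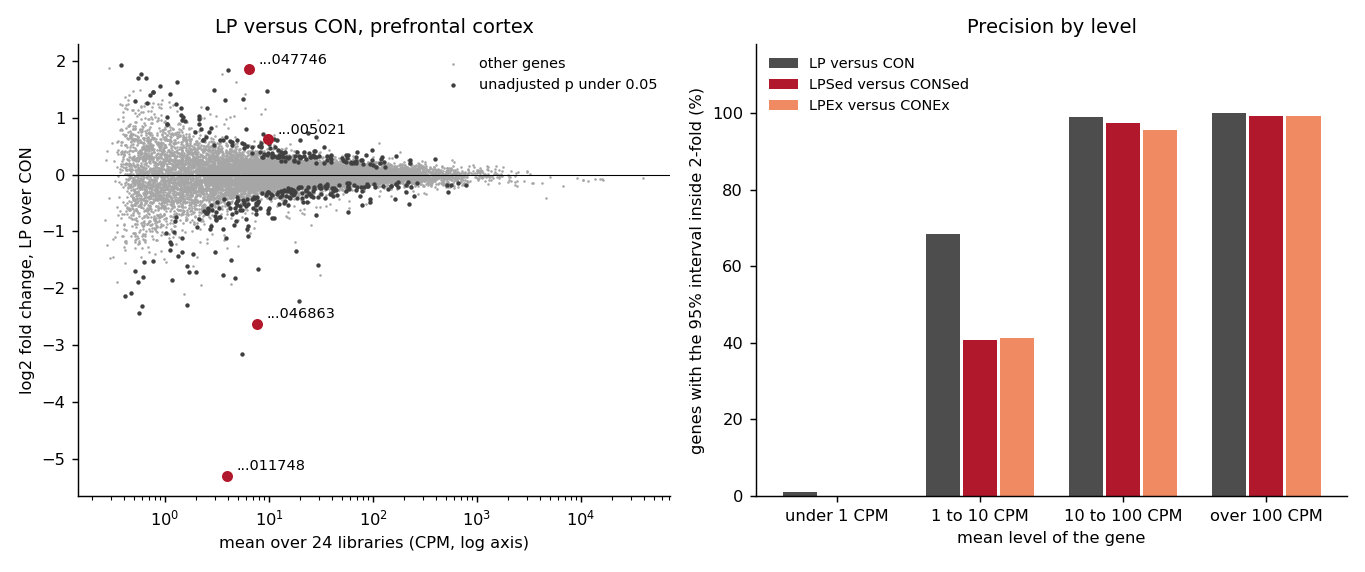
Left, log2 fold change of LP over CON (y axis) against mean CPM over 24 libraries (x axis, log scale) for 15228 genes, with the 4 genes described in the text in red under the last 6 digits of their IDs. Right, percent of genes whose 95% interval lies inside a 2-fold change, by mean level and comparison; 99.0% of genes between 10 and 100 CPM met this in LP versus CON, against 1.01% of genes under 1 CPM.

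The 2 genes with the smallest p in each direction are given as values, none of which passed the test. ENSRNOG00000047746 was measured at a lowest, median, and highest level of 1.01, 5.83, and 33.5 CPM in LP, against 0.585, 2.88, and 5.802 CPM in CON. Its groups overlapped, and 6 of the 12 LP rats, 2 of LPSed and 4 of LPEx, exceeded the highest CON rat. LP over CON gave a log2 fold change of 1.85 (SE 0.471, 95% interval 0.89 to 2.81, edgeR FDR 0.9997), with 1.83 in LPSed versus CONSed and 1.87 in LPEx versus CONEx. In the hippocampus of the same rats it was 0.01 (-1.06 to 1.08) with all libraries and 0.03 (-1.11 to 1.16) without the 3 doubtful ones.

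ENSRNOG00000005021 had a lowest, median, and highest level of 6.70, 11.5, and 15.3 CPM in LP and of 3.79, 8.15, and 10.1 CPM in CON. All LP rats but 1 (LPSed rat 13) were above the highest CON rat. Its log2 fold change was 0.62 (SE 0.157, 95% interval 0.30 to 0.94, edgeR FDR 0.9997), and was between 0.54 and 0.69 whichever library was left out. It was 0.98 with exercise and 0.25 without it, and the test of that gap gave a difference of 0.73 (0.14 to 1.31, edgeR FDR 0.775).

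ENSRNOG00000046863 was highest in the hippocampus, with a median of 169.9 CPM over 36 hippocampal libraries against 2.69 CPM over 36 prefrontal ones and 0 in liver, colon, and muscle. It lay between 1.03 and 4.13 CPM in LP (median 1.74) and between 1.02 and 80.0 CPM in CON (median 3.25). The 3 high CON libraries were CONSed rat 7 with 80.0 CPM, CONEx rat 9 with 43.4 CPM, and CONEx rat 5 with 12.2 CPM, the first 2 of which also led the hippocampal index. The log2 fold change of -2.62 (SE 0.620, 95% interval -3.89 to -1.35, edgeR FDR 0.9997) became -1.39 without CONSed rat 7 and -0.67 without both CONSed rat 7 and CONEx rat 9. In the hippocampal libraries it was 0.25 (-0.74 to 1.24). There LPSed rat 7 had 1.98 CPM, LPEx rat 10 had 4.17 CPM, and CONSed rat 3 had 7.74 CPM. Without these 3 the value was 0.40 (0.04 to 0.75, unadjusted edgeR p 0.0292, edgeR FDR 0.99999). The 3 libraries were left out because they held least of this same gene. That interval and p are therefore no independent test of it.

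ENSRNOG00000011748 was at 0 counts in 7 LP and 7 CON libraries. Its highest LP level was 0.857 CPM, against 80.7 CPM in CONEx rat 5 and 9.87 CPM in CONSed rat 3. Its fitted log2 fold change, which depends on the prior count of the fit, was -5.30 (SE 1.28, edgeR FDR 0.9997), and without CONEx rat 5 it was -2.28 with an unadjusted edgeR p of 0.141. Limma voom gave 0.19, in the opposite direction. The gene was too low to be tested in the hippocampus.

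**Figure D2:**
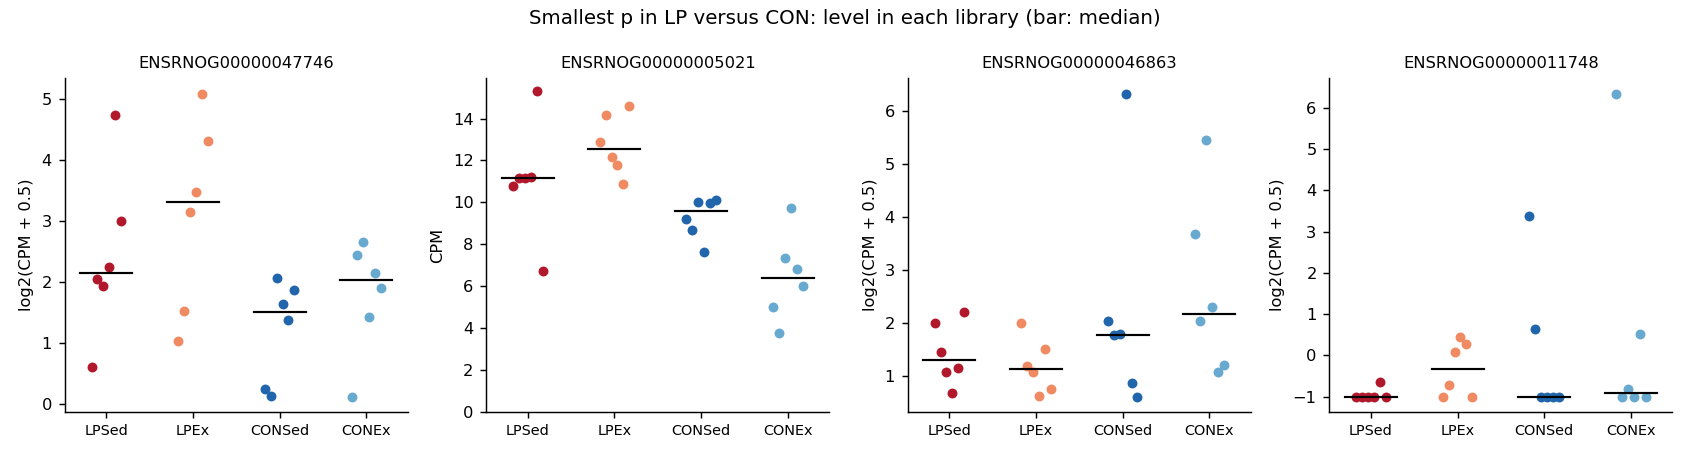
Level of the 4 genes with the smallest p in LP versus CON in each of 24 libraries, by group (6 rats each, bars at medians), as log2(CPM + 0.5) or, where the range is narrow, CPM. ENSRNOG00000005021 was higher in most LP rats, and ENSRNOG00000046863 and ENSRNOG00000011748 were high in few CON libraries, the highest at 80.0 and 80.7 CPM.

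Without exercise, 0 of 15228 genes (0% called) passed in LPSed versus CONSed in edgeR (lowest FDR 0.9999), and DESeq2 and limma voom called 0. There were 449 genes under an unadjusted p of 0.05 (2.95%), 245 higher and 204 lower in LPSed. For 22 genes (0.144%) the 6 LPSed and 6 CONSed levels did not overlap, 14 higher and 8 lower in LPSed. Without CONSed rat 7 the count was again 0, with 444 under an unadjusted p of 0.05. DESeq2 without that rat called 4 genes, 2 higher (ENSRNOG00000047657 and ENSRNOG00000042182) and 2 lower (ENSRNOG00000042776 and ENSRNOG00000020821) in LPSed, and edgeR on the 12 sedentary libraries alone called 1, ENSRNOG00000025923. These IDs, other than ENSRNOG00000020821, are named because of those calls, after their values were seen.

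Of the genes chosen by rule, ENSRNOG00000004426 was the most evenly separated. It had 302, 321, and 371 CPM (lowest, median, highest) in LPSed and 98.1, 163, and 229 CPM in CONSed. Every LPSed rat was above every CONSed rat. This gave a log2 fold change of 1.00 (SE 0.260, 95% interval 0.46 to 1.53, edgeR FDR 0.9999). With exercise the order was the other way, with 102, 136, and 270 CPM in LPEx against 126, 215, and 426 CPM in CONEx, and a log2 fold change of -0.53 (-1.06 to -0.00).

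ENSRNOG00000049944 had 3.18, 11.3, and 32.4 CPM in LPSed and 1.44, 2.95, and 3.21 CPM in CONSed. All LPSed rats but 1 were above the highest CONSed rat, and LPSed rats 8 and 10 were highest. The fold change on the log2 scale was 2.47 (SE 0.562, 95% interval 1.32 to 3.62, edgeR FDR 0.9999). LPEx rats were tightly grouped between 3.94 and 5.19 CPM, and CONEx rats were between 2.13 and 34.5 CPM.

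On the low side, ENSRNOG00000016275 was nearly absent from LPSed, at 0 to 1.48 CPM, and present in 4 of 6 CONSed rats at 6.07, 16.3, 29.9, and 70.9 CPM. It was highest in liver, with a median of 8672 CPM over 35 liver libraries. It also passed 1000 CPM in 7 of 36 hippocampal libraries. The gene is among those of the hippocampal index, and the level of 29.9 CPM was that of CONSed rat 7, which led that index. CONSed rats 3, 4, and 6, with 70.9, 6.07, and 16.3 CPM, were at -0.0631, -0.117, and -0.0708 on it. In the prefrontal cortex the log2 fold change was -5.30 (SE 1.19, 95% interval -7.73 to -2.86, edgeR FDR 0.9999), and -4.33 without CONSed rat 3, within a range of -5.94 to -4.33 when single libraries were left out. That range includes the fit without CONSed rat 7. In the hippocampus of the same rats LPSed versus CONSed gave -2.42 (-6.17 to 1.32), or -2.41 (-5.81 to 0.99) without the 3 doubtful libraries. For LP versus CON these were -2.04 (-4.62 to 0.53) and -4.50 (-7.60 to -1.40, edgeR FDR 0.99999). LPEx rat 10, among the 3 left out, had the highest hippocampal level of this gene in LP, 7291.5 CPM. LPEx versus CONEx in hippocampus was -1.66 (-5.31 to 1.98) with all libraries and -6.52 (-10.59 to -2.44) without the 3. The larger LP versus CON value thus depends on leaving out that library. What part liver-enriched or hippocampal transcripts had in the prefrontal value was not tested. ENSRNOG00000020821 had 1.67 to 4.68 CPM in LPSed and 1.44 to 34.2 CPM in CONSed, where CONSed rats 4, 6, and 10 were high, and its log2 fold change was -2.09 (SE 0.505, edgeR FDR 0.9999), or -2.33 to -1.53 when single libraries were left out.

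With exercise, 0 of 15228 genes (0% called) passed in LPEx versus CONEx in edgeR, with a lowest FDR of 0.495. There were 1011 genes under an unadjusted p of 0.05 (6.64%), of which 467 were higher and 544 lower in LPEx. The groups did not overlap for 47 genes (0.309%), 30 higher and 17 lower in LPEx. DESeq2 called 4 genes: ENSRNOG00000005021, ENSRNOG00000005932, and ENSRNOG00000007256 higher in LPEx, and ENSRNOG00000047225 lower. Limma voom called 0. Only the last of the 4 also changed by more than 2-fold. The count of genes under an unadjusted p of 0.05 was between 696 and 1531 when single libraries were left out, with the lowest without LPEx rat 6 and the highest without CONEx rat 9. It was 781 without LPEx rat 11, 819 without LPEx rat 8, 820 without LPEx rat 10, and 1116 without CONSed rat 7. Leaving out LPEx rat 8 gave 1 call in edgeR, ENSRNOG00000018522 at a log2 fold change of -3.95 (FDR 0.0167), an ID named because of that call.

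ENSRNOG00000005021 had 10.9, 12.5, and 14.6 CPM in LPEx and 3.79, 6.41, and 9.73 CPM in CONEx. The groups did not overlap. LPEx over CONEx gave a log2 fold change of 0.98 (SE 0.204, 95% interval 0.57 to 1.40, edgeR FDR 0.495, DESeq2 adjusted p 0.0540), and 0.87 to 1.14 when single libraries were left out. In the hippocampus of the same rats it was -0.03 (-0.68 to 0.61), or -0.11 (-0.78 to 0.56) without the 3 doubtful libraries, and the difference between the regions was not tested.

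ENSRNOG00000005932 had 19.5, 23.6, and 27.4 CPM in LPEx and 7.499, 13.2, and 17.5 CPM in CONEx. Again every LPEx rat was above every CONEx rat. Its log2 fold change was 0.86 (SE 0.184, 95% interval 0.49 to 1.24, edgeR FDR 0.495, DESeq2 adjusted p 0.0540), and 0.75 to 0.97 when single libraries were left out. Without exercise it was -0.20 (-0.57 to 0.18), and in the hippocampus with exercise -0.33 (-0.97 to 0.31), or -0.54 (-1.19 to 0.12) without the 3 doubtful libraries.

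ENSRNOG00000007256, named after its DESeq2 call was seen, is enriched in brain. It had 93.6, 110.7, and 119 CPM in LPEx against 24.4, 67.7, and 88.6 CPM in CONEx, with no overlap. Its log2 fold change was 0.81 (SE 0.190, edgeR FDR 0.712, DESeq2 adjusted p 0.0858). CONEx rat 7 was lowest of all 24 in this gene, in ENSRNOG00000005021, and in ENSRNOG00000005932.

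ENSRNOG00000015318 had 33.3, 43.1, and 52.1 CPM in LPEx and 49.4, 63.4, and 82.7 CPM in CONEx. The groups overlapped by 1 LPEx rat. On the log2 scale the fold change was -0.59 (SE 0.144, 95% interval -0.88 to -0.29, edgeR FDR 0.712).

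ENSRNOG00000047225 had 2 separate levels, at most 4.63 CPM in 14 libraries and at least 31.4 CPM in 10, with none between. It was high in 0 of 6 LPEx rats against 5 of 6 CONEx rats, and in 3 of 6 LPSed rats against 2 of 6 CONSed rats. The log2 fold change in LPEx versus CONEx was -4.30 (SE 1.06, 95% interval -6.48 to -2.13, edgeR FDR 0.712, DESeq2 adjusted p 0.0858), and on the 12 exercise libraries alone edgeR gave an FDR of 0.0231. Levels over 20 CPM were seen in 10 of the 24 prefrontal and 10 of the 24 hippocampal libraries, and 4 rats were over 20 CPM in both regions. In liver, colon, and muscle of the whole series 7 of 35, 10 of 36, and 10 of 36 libraries were over 20 CPM.

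**Figure D3:**
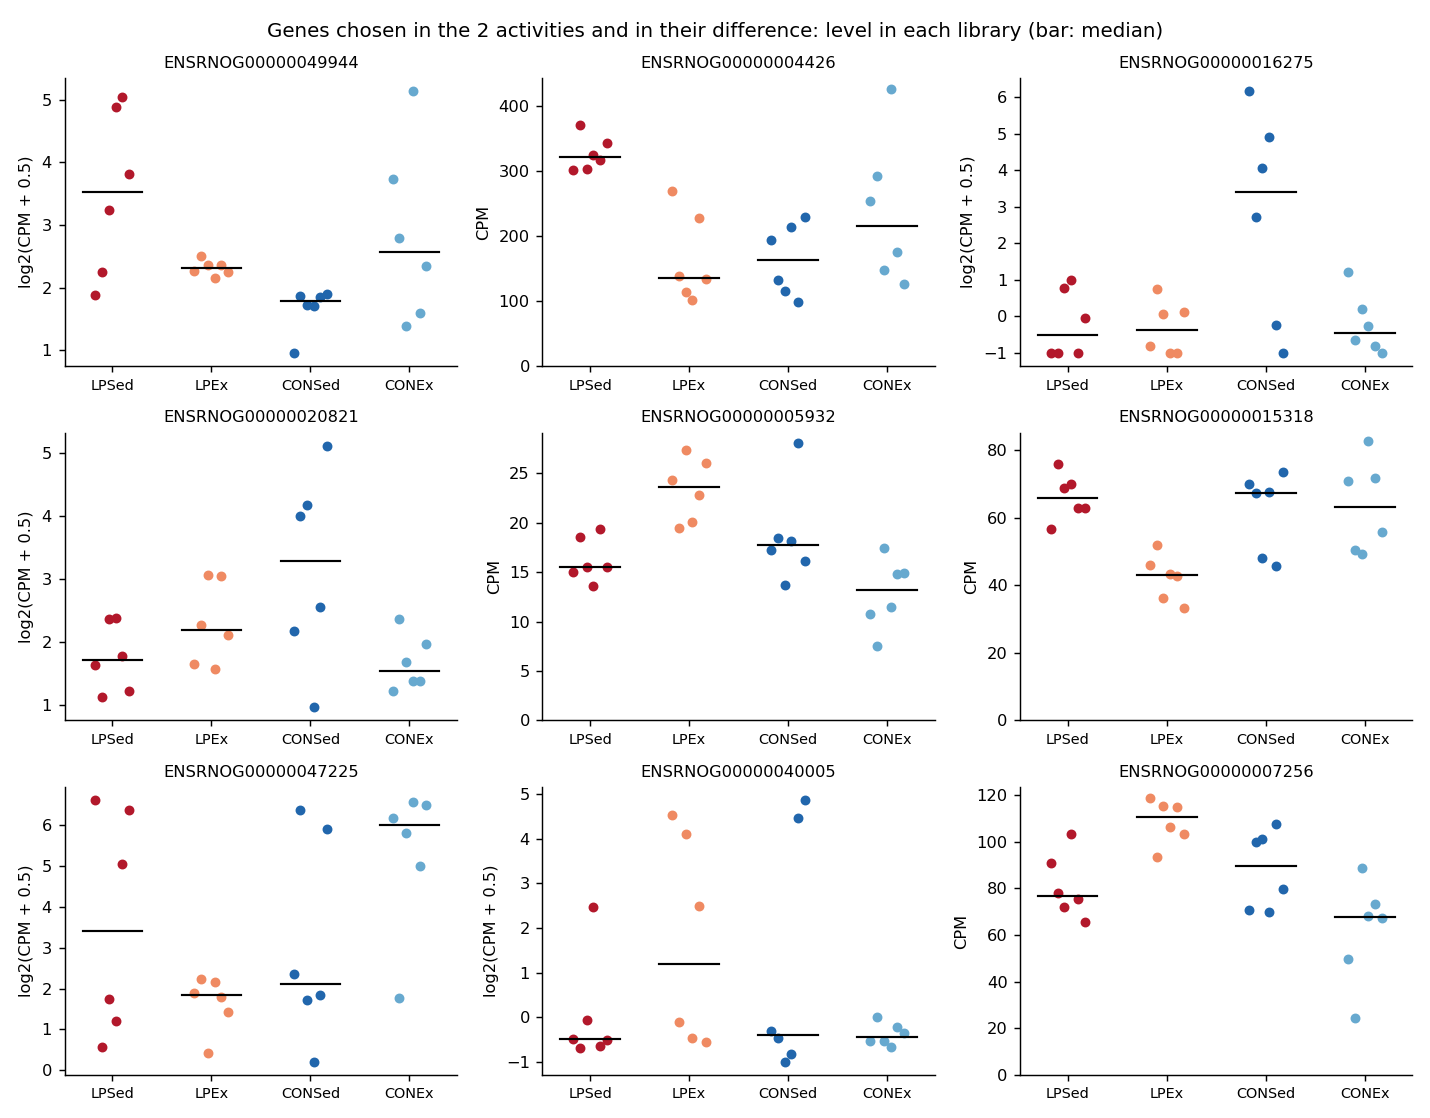
Level of 9 genes in each library by group (6 rats each, bars at medians), as log2(CPM + 0.5) or CPM. The LPEx and CONEx rats do not overlap for ENSRNOG00000005932 and ENSRNOG00000007256, the LPSed and CONSed rats do not overlap for ENSRNOG00000004426, and ENSRNOG00000047225 and ENSRNOG00000040005 switch between a low and a high level.

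The difference between the activities, LPEx over CONEx less LPSed over CONSed, was itself tested and gave 0 calls in edgeR (0% called, lowest FDR 0.775), 0 in DESeq2, and 0 in limma voom. It had 968 genes under an unadjusted p of 0.05 (6.36%), 442 positive and 526 negative. DESeq2 without CONSed rat 7 called 8 genes, 7 of them over 2-fold. The genes with the smallest p were ENSRNOG00000040005 and ENSRNOG00000005932 on the positive side and ENSRNOG00000049944 and ENSRNOG00000004426 on the negative side. ENSRNOG00000040005 was at most 0.50 CPM in 18 libraries and at least 5.07 CPM in 6, namely 1 of LPSed, 3 of LPEx, 2 of CONSed, and 0 of CONEx. Its difference was 7.79 log2 units (SE 1.90, edgeR FDR 0.775), and between 6.87 (without CONSed rat 10) and 9.93 when single libraries were left out. For ENSRNOG00000005932 it was 1.06 (SE 0.260), for ENSRNOG00000049944 -3.69 (SE 0.775), and for ENSRNOG00000004426 -1.52 (SE 0.367), at the same edgeR FDR of 0.775. Without CONEx rat 10 the difference of ENSRNOG00000049944 was -2.81.

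The LP differences of the 2 activities, which share no library, showed no positive relation across genes. Over 15228 genes their log2 fold changes had a Pearson r of -0.03 and a Spearman rho of -0.12, and across 9280 genes of at least 10 CPM these were -0.18 and -0.23. The values come from 1 scaling and 1 filter, and genes are not independent replicates. Of the genes under an unadjusted p of 0.05, 24 were shared, 5.35% of the sedentary list (against 6.64% of all genes under that p with exercise) and 2.37% of the exercise list (against 2.95% of all genes without it). These shares were below those of all genes. Their signs were the same for 7 and opposite for 17, where 43.8% of all genes had the same sign. At 10 CPM or more 12 were shared, with the same sign for 1 and opposite signs for 11, where 40.7% of all such genes had the same sign.

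**Figure D4:**
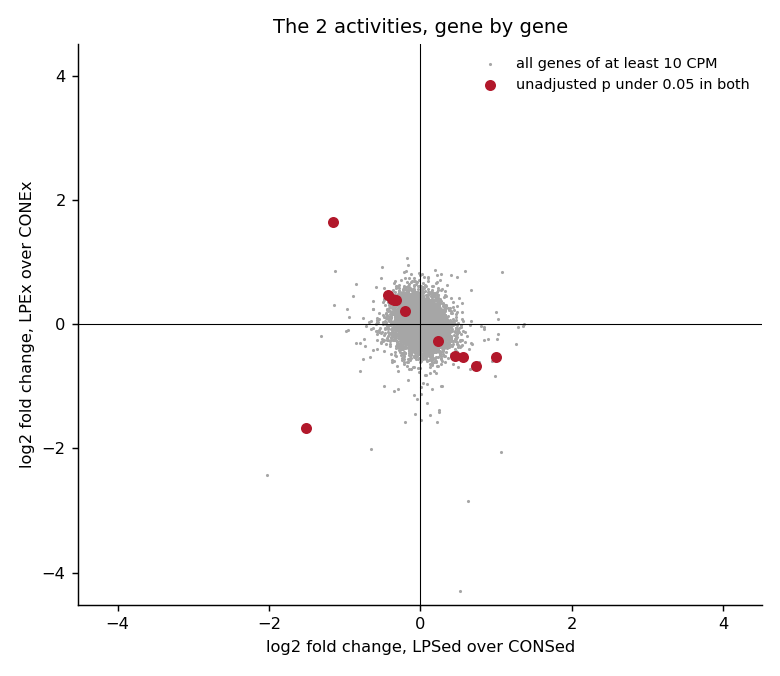
Log2 fold change of LPSed over CONSed (x axis) against LPEx over CONEx (y axis) for 9280 genes with a mean of at least 10 CPM. The 12 genes in red had an unadjusted p under 0.05 in both, 11 of them with opposite signs.

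Genes were also grouped by the tissue in which they are high, from the 12 angiotensin (1-7) libraries of each tissue, none of which enters the comparison. No group held a called gene. Of 786 brain-enriched genes, 11 were higher and 10 lower in LP at an unadjusted p under 0.05 (2.67%, against 2.5% of all genes), with a median log2 fold change of 0.02. In LPEx versus CONEx 67 were higher and 28 lower (12.1%, against 6.64%), with a median of 0.03, and in LPSed versus CONSed 4 were higher and 10 lower (1.78%, against 2.95%). Without CONSed rat 7 and CONEx rat 9 the LPEx versus CONEx count was 102 higher and 46 lower (18.8%, against 10.6% of all genes). Brain-enriched genes were required to reach 20 CPM, while the shares of all genes include lower ones, so the 2 are not matched in level. Among 9280 genes of at least 10 CPM, 808 were under that p with exercise and 215 without it.

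Genes of the other brain region sampled are given with and without the libraries noted above. Of 91 genes higher in hippocampus, 22 had a positive and 69 a negative log2 fold change in LP versus CON, with a median of -0.21 against -0.00 over all genes. Of all genes, 48.7% had a positive value. At an unadjusted p under 0.05 1 was higher and 9 were lower in LP (11.0%). Of all genes 2.5% were under that p, 156 higher and 224 lower, and the list was not matched to them in level. Without CONSed rat 7 the list had 1 higher and 3 lower under that p, and without CONEx rat 9 as well 2 and 2. The split of signs without CONSed rat 7 was 40 and 51, with a median of -0.03. Without both rats the split was 57 and 34, with a median of 0.06. In LPSed versus CONSed the median was -0.27 with all libraries and 0.05 without CONSed rat 7. In LPEx versus CONEx it was -0.12 with all libraries and 0.08 without both rats. The 68 genes higher in prefrontal cortex ran the other way, with 52 positive and 16 negative and a median of 0.11, which became 0.06 without CONSed rat 7 and 0.04 without both. In LP versus CON both medians were thus nearer 0 without the 2 control libraries. For the prefrontal genes the LPSed versus CONSed median was 0.10 with all libraries and -0.06 without CONSed rat 7.

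Genes of the peripheral tissues were low in the cortex, and those that could be tested had slightly negative medians in LP versus CON. The median was -0.06 for 155 liver-enriched genes, -0.07 for 195 colon-enriched genes, and -0.07 for 135 muscle-enriched genes. At an unadjusted p under 0.05 the genes higher and lower in LP were 0 and 6, 1 and 5, and 1 and 2. These were 3.87, 3.08, and 2.22% of the genes tested in the 3 lists, against 2.5% of all genes (156 higher and 224 lower). The lists held 377, 406, and 208 genes before the filter, and those tested were not matched in level to all genes.

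**Figure D5:**
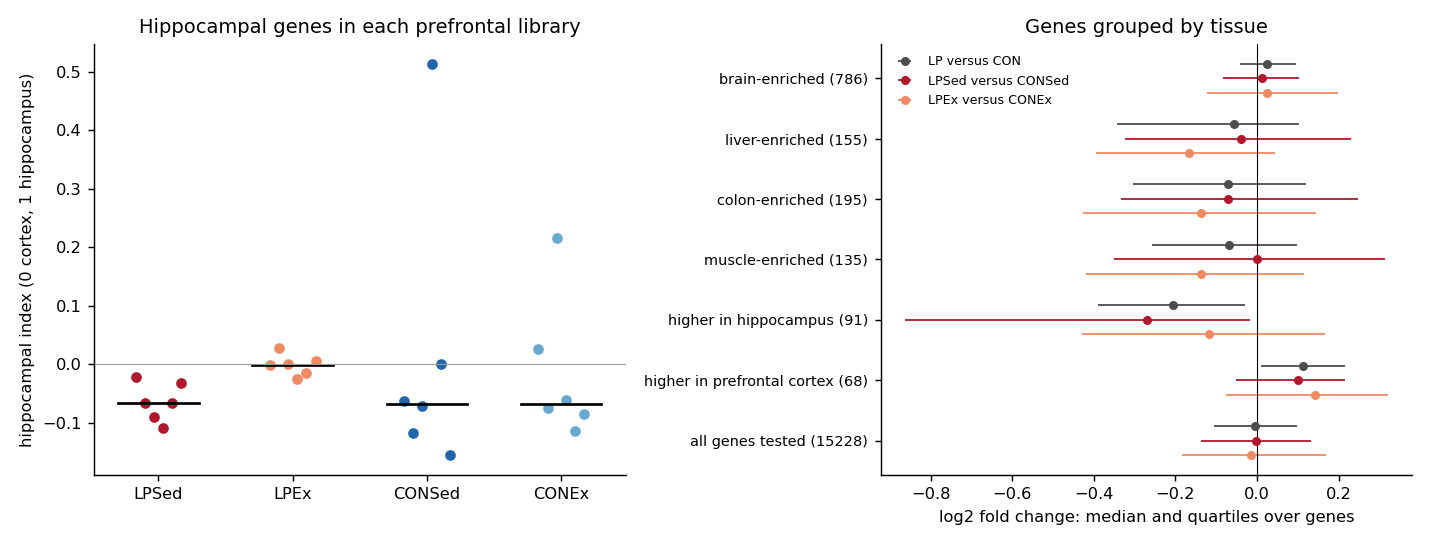
Left, hippocampal index of each prefrontal library by group (6 rats each, bars at medians), with CONSed rat 7 at 0.514 and CONEx rat 9 at 0.216. Right, median (point) and quartiles (line) of the log2 fold change over the genes of each tissue list, with the number of genes in parentheses; genes higher in hippocampus had a median of -0.21 in LP versus CON.

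In the hippocampus of the same 24 rats 0 of 15718 genes passed for LP versus CON in edgeR, with 434 under an unadjusted p of 0.05, and 0 of 15785 with 366 under that p when the hippocampal libraries of LPSed rat 7, LPEx rat 10, and CONSed rat 3, which held least of ENSRNOG00000046863, were left out. Across 15007 genes tested in both regions the log2 fold changes had a Pearson r of 0.05 and a Spearman rho of 0.09, and the libraries came from the same animals. Under an unadjusted p of 0.05 20 genes were shared, 5.39% of the prefrontal list (against 2.76% of all genes under that p in hippocampus) and 4.93% of the hippocampal list (against 2.5% in prefrontal cortex). The sign was the same for 17 of the 20 and for 54.3% of all 15007 genes. This overlap was computed with all hippocampal libraries.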

How the data were processed

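Reads were checked with FastQC, trimmed of bases under a PHRED score of 20 with Trim Galore and cutadapt, and aligned to Rnor_5.0 with STAR by the authors, who deposited whole-number counts per gene with no normalization. Versions, annotation, and strand setting are not given in the sources used here. The table held 32545 Ensembl IDs and 0 columns without a sample. As 0 IDs could be paired with symbols, marker lists and the mitochondrial share were not computed.

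The 24 libraries (13211009 to 17944320 counts) were filtered (filterByExpr), scaled by TMM, and fitted in edgeR 4.0.16 (R 4.3.3) by quasi-likelihood F tests, with activity as covariate or with a factor of 4 groups. Calls had an FDR < 0.10 (Benjamini-Hochberg), and DEGs also a log2 fold change over 1. SEs are the fold change divided by the square root of F. DESeq2 1.42.0 and limma 3.58.1 voom were alternatives. Library measures were tested by two-sided permutation (100000 resamples within activity).

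Named genes are the 2 with the smallest p in each direction of each comparison, at a mean of at least 1 CPM. Tissue lists required 20 CPM and 10-fold (regions, 10 CPM and 3-fold) after adding 0.5 CPM. Levels are TMM-scaled CPM, and across tissues CPM of total counts. The comparison and the lists were chosen with earlier results of these data known.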

Additional observations from a re-analysis of the deposited data

Results flagged for a closer look

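In 14 of 76 groups of 6 rats screened (13 genes and 6 library measures in 4 groups) 1 library lay far from the other 5 by Dixon's test. For normally distributed values chance alone would give this in about 1 in 20 groups. Gene levels were screened as CPM, which were skewed and held zeros, so that rate is no reference for them. The genes had been chosen for small p values. Hippocampal signal was high in single CON libraries. CONSed rat 7 had a hippocampal index of 0.514, with the next CONSed rat at 0, and 80.0 CPM of ENSRNOG00000046863, with the next at 3.57 CPM. CONEx rat 9 had 43.4 CPM of that gene, with the next CONEx rat at 12.2 CPM.

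ENSRNOG00000011748 was at 0.143 CPM in LPSed rat 10, where the other 5 rats were at 0, and far above the other rats of its group in CONEx rat 5 (80.7 CPM) and CONSed rat 3 (9.87 CPM). LPSed rat 10 stood apart with 26.1 CPM of ENSRNOG00000047746. ENSRNOG00000049944 was high in CONEx rat 10 (34.5 CPM) and low in CONSed rat 3 (1.44 CPM). The remaining genes were ENSRNOG00000040005 in LPSed rat 8 (5.07 CPM), ENSRNOG00000016275 in CONEx rat 5 (1.82 CPM), and ENSRNOG00000005932 in CONSed rat 8 (28.1 CPM). Of the library measures, the brain-enriched share was low in LPSed rat 8 (18.2%), and total counts were high in CONEx rat 10 (16287299).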

How the results depend on the processing

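With RLE size factors, no filter for low counts, a covariate for the share of the 10 most abundant genes, robust dispersions, all 36 prefrontal libraries, limma voom, no activity covariate (LP versus CON only), or both CONSed rat 7 and CONEx rat 9 left out, each comparison kept 0 calls. Robust dispersions, the fits without both rats, and DESeq2 without CONSed rat 7 were chosen after seeing the data. DESeq2 called 4 genes (1 DEG) in LPEx versus CONEx. Without CONSed rat 7 it called 4 (4 DEGs) in LPSed versus CONSed, 5 (2 DEGs) in LPEx versus CONEx, and 8 (7 DEGs) in the difference. The 12 libraries of 1 activity alone gave 1 call (1 DEG) in LPSed versus CONSed and 1 (1 DEG) in LPEx versus CONEx. With single libraries left out, calls and DEGs ranged from 0 to 1 in LP versus CON (1 without CONSed rat 10, ENSRNOG00000049598, log2 fold change 2.20, FDR 0.0979) and from 0 to 1 in LPEx versus CONEx (1 without LPEx rat 8), and were 0 in the other comparisons.

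The labels do not say that a number marks the same litter or day. Same-numbered libraries had correlations of -0.0724 to 0.0616 in 6 pairs, and 1 of the 6 correlated best with its own number. With the rat number as a replicate block there were 0 calls in all 4 comparisons.

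Genes under an unadjusted p of 0.05 numbered 380, 449, 1011, and 968 in LP versus CON, LPSed versus CONSed, LPEx versus CONEx, and the difference. Without the filter they were 1739, 1781, 1898, and 1844 of 22129. Voom gave 646 in LP versus CON, and leaving out CONSed rat 8 gave 694. Without CONSed rat 7 and CONEx rat 9 there were 1633 in LPEx versus CONEx and 1487 in the difference. With single libraries left out the counts ranged from 303 to 694, 399 to 618, 696 to 1531, and 756 to 1303. Under 0.05 whichever library was left out were 130 of 380 (34.2%), 88 of 449 (19.6%), 296 of 1011 (29.3%), and 400 of 968 (41.3%).

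Limma voom gave ENSRNOG00000011748 a log2 fold change of 0.19, against -5.30 in edgeR. The gap in hippocampal index between LP and CON, -0.0343, was 0.0153 without CONSed rat 7. Intervals were widest under 1 CPM.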
